A study of Arabidopsis thaliana with 16 samples.

Results

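The scl28 mutant of Arabidopsis thaliana was compared with wild type Col-0 (WT) across the genes transcribed in the tissue that carries the axillary meristems. SCL28 encodes a transcription factor of the GRAS family. Every locus that passed a filter on low counts was a member of the comparison, with the 4 scl28 libraries set against the 4 WT libraries and the counts of the transcript models of a locus added up. This left 20947 of 33602 loci. The scl28 plants carried the scl28 mutation and were harvested 25 days after sowing. The WT plants carried no listed mutation and were harvested 23 days after sowing, so that genotype and harvest day cannot be told apart. The genotype labels call scl28, d14-7 and ckx3 ckx5 knock outs, without naming the lesion in scl28.

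The study measured poly(A) RNA in 16 libraries, 4 from each genotype, and the other 2 genotypes were d14-7, a mutant of the strigolactone receptor, and the double mutant labelled ckx3 ckx5, both harvested 23 days after sowing. Reads of CKX3 were at 1.43 to 1.96 CPM in the libraries with the ckx3 ckx5 label and at 0.0527 to 0.65 CPM in WT, against what a loss of its transcript would give, so that genotype is named by its label throughout. All plants grew in cycles of 16 h light and 8 h dark and were sampled between 9 and 11 in the morning, when the bolt was below 1 cm. Leaves, roots and the elongated part of the stem were cut off, which left the lower stem with its axillary buds. Each library was a pool of the tissue of 2 to 3 plants, and the 4 pools with the best RNA integrity among 5 were sequenced. Total counts were 28791965 to 36735056 in the scl28 libraries and 28120497 to 36453565 in the WT libraries.

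In dividing plant cells, the MYB3R factors drive a wave of transcription at the G2 to M transition through the MSA element, whose core is AACGG, and SCL28 is among the genes of that wave. The SCL28 protein is known, with an AP2-type partner, to activate genes of the SIAMESE-RELATED family, whose products bind and inhibit cyclin-dependent kinases (CDKs). These inhibitors hold back mitosis, and plants without SCL28 are known for smaller cells. In the axillary bud the same cell cycle machinery runs under the control of strigolactone, cytokinin, auxin and sugar.

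The promoters below show the elements that genes of the cell cycle and of the clock carry, the MSA core of the mitotic genes and the evening element (AAAATATCT) of the clock-regulated genes. Each is the 300 bases before the annotated start of the gene in RefSeq TAIR10.1, 5′ to 3′ on the strand of the gene, with every copy of the named motif, on either strand, in capitals. SCL28 lies at chr1:23399112-23402176 on the minus strand, and its promoter is chr1:23402177-23402476. AT1G08180, annotated as a cyclin-dependent kinase inhibitor, has its promoter at chr1:2565319-2565618 on the minus strand. CYCB1;2, a mitotic B-type cyclin, has its promoter at chr5:1861704-1862003 on the minus strand. GRP7, a glycine-rich RNA-binding protein with a daily rhythm, has its promoter at chr2:9266558-9266857 on the minus strand, and its capitals mark the evening element.
SCL28: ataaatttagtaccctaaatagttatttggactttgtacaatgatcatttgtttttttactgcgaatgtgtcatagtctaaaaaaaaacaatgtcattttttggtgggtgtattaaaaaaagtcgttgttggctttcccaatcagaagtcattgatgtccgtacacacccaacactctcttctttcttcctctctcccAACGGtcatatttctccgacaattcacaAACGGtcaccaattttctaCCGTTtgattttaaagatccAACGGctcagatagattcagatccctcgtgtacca
AT1G08180: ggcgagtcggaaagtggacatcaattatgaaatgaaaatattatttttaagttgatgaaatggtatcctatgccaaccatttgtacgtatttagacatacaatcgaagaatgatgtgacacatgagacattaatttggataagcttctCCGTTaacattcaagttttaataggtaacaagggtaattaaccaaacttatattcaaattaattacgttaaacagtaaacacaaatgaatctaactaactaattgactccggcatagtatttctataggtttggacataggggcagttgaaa
CYCB1;2: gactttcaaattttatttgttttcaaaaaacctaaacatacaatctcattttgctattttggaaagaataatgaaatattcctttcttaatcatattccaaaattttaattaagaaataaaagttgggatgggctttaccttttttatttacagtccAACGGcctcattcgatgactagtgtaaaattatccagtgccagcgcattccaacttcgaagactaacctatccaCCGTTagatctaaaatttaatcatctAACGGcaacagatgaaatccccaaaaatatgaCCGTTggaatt
GRP7: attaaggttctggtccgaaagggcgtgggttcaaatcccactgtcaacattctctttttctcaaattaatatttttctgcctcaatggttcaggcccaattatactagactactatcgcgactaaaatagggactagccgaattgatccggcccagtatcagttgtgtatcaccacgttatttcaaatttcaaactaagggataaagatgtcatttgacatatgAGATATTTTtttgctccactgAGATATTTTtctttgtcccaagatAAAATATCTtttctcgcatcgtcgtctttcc
The SCL28 and CYCB1;2 promoters each held 4 copies of the MSA core and that of AT1G08180 held 1. The MSA core was in 69.0% of the promoters of 29 listed G2/M genes and in 43.8% of those of 16 SIAMESE-related loci, in 25.0% of 24 clock promoters and 44.4% of 18 promoters of clock outputs, against 23.7% of all 32817 promoters of the same length. The GRP7 promoter held 3 copies of the evening element, which was in 25.0% of 24 clock promoters and in 2.6% of all promoters. The G-box, CACGTG, was in 37.5% of the clock promoters and in 6.4% of all. Both strands were searched, none of the 3 motifs contains another, and a match says only that the letters are there.

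A locus is said to have risen or fallen in scl28 where the quasi-likelihood test of edgeR gave an adjusted p under 0.05 against WT. Levels are CPM, the counts of a locus scaled to the size of its library, adjusted by the TMM normalization factor of that library. They are not corrected for gene length, so they are compared between libraries and not between genes. By this rule 1949 loci rose (9.3% of those tested) and 2206 fell (10.5%), or 4155 loci (19.8%) in all. Large changes were mostly falls: 749 loci (3.58%) fell at least 2-fold and 106 (0.506%) rose at least 2-fold. At 18.8% of the loci the 4 scl28 libraries did not overlap the 4 WT libraries: all were above WT at 9.65% and all below at 9.11%.

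The scl28 libraries were more alike than the WT libraries, with correlations across loci of 0.984 to 0.99 in scl28 and 0.968 to 0.99 in WT. This spread touched named groups of genes. The summed level of 26 photosynthesis genes of the leaf was 31800, 33300, 30000 and 29200 CPM in scl28 replicates 1 to 4 and 51300, 39700, 33000 and 30000 CPM in WT replicates 1 to 4. The scl28 values thus lay at the low end of the WT values. Within the leaf list 5 of 26 members fell (19.2%, against 10.5% of all loci) and none rose. The count was 22 without WT replicates 3 and 4, 14 without WT replicate 4, 3 without scl28 replicate 2, and 2 without any of scl28 replicates 1, 3 and 4 and WT replicates 1 and 2. It was 1 with only the libraries of scl28 and WT in the fit and 8 with DESeq2. The leaf count thus depended on the libraries of both genotypes and on the fit. Of 7 root markers, 5 were too low to test, and their sum was 1.6 to 4.24 CPM in scl28 and 1.59 to 4.28 CPM in WT. Genes of the meristem and organ boundaries, which define the labelled tissue, summed to 1110 to 1380 CPM in scl28 and 1040 to 1330 CPM in WT. In these bulk samples, fewer cells of a type and less RNA per cell cannot be told apart.

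SCL28 itself fell but remained transcribed. It was at 18.4, 15.3, 14 and 14.5 CPM in the scl28 libraries and at 46.2, 40.3, 33.9 and 25.8 CPM in the WT libraries. Every scl28 library was below every WT library, and reads remained in all 4 libraries labelled knock out. Counts per locus do not show where in the gene these reads lie. The raw counts were 566, 444, 526 and 462 in scl28, against 1420, 1130, 1153 and 979 in WT. The log2 fold change was -1.23 ± 0.15 (SE; edgeR adjusted p = 3.99e-05), and SCL28 was also lower than in d14-7 (-1.72, adjusted p = 3.87e-07) and than in the ckx3 ckx5-labelled libraries (-1.49, adjusted p = 1.36e-06). Here and below, the SE of a log2 fold change is its absolute value divided by the square root of the F statistic of edgeR.

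Of the SIAMESE-related loci, 14 of 16 could be tested, and 5 of them fell (35.7%) and 1 rose (7.14%), against 10.5% and 9.3% of all loci. Their median log2 fold change was -0.22, against 0.01 over all loci tested. The falls of 4 loci were the clearest, since their scl28 and WT libraries did not overlap. AT1G08180 was at 3.54, 2.96, 3.01 and 3.77 CPM in scl28 and at 7.67, 9.09, 11.7 and 11.4 CPM in WT (log2 fold change -1.59 ± 0.13, edgeR adjusted p = 1.01e-06). AT1G51355, annotated as an SMR3-like CDK inhibitor, was at 1.36, 1.07, 0.934 and 1.19 CPM in scl28 and at 3.22, 2.67, 2.41 and 3.22 CPM in WT (-1.34 ± 0.17, adjusted p = 5.3e-05). Every scl28 library of both loci was below every WT library. AT5G59360, annotated as an uncharacterized protein, averaged 1.35 ± 0.319 CPM in scl28 and 3.14 ± 0.704 CPM in WT (SD, n = 4 each), with a log2 fold change of -1.21 and an edgeR adjusted p of 0.000277. AT5G40460, also annotated as SMR3-like, was at 3.18, 2.89, 1.47 and 2.2 CPM in scl28 and at 7.35, 4.49, 4.44 and 4.61 CPM in WT (-1.11 ± 0.21, edgeR adjusted p = 0.00182). These 4 calls were kept in every alternative that tested them, and all 4 loci were also below d14-7 and below the ckx3 ckx5-labelled libraries.

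Of the other 10 members tested, 1 fell and 1 rose. SIM, the founding member, was at 19.1 ± 2.5 CPM in scl28 and 21.9 ± 3.21 CPM in WT (SD, n = 4 each; log2 fold change -0.20, edgeR adjusted p = 0.2). SMR1, which sets the number of giant cells in the sepal, had a log2 fold change of -0.24 (adjusted p = 0.0866). AT3G20898, at 11.8 CPM in scl28 and 12.5 CPM in WT on average, was at -0.08 and did not pass either. The fall of AT1G10690 (-0.57, edgeR adjusted p = 0.0472) was lost without any of 5 libraries, scl28 replicates 1, 2 and 4 and WT replicates 3 and 4, with adjusted p up to 0.139. The rise of AT2G28330 (0.43, edgeR adjusted p = 0.0367) was also lost without any of 5 libraries, scl28 replicates 1 and 3 and WT replicates 2, 3 and 4, with adjusted p up to 0.11. Without WT replicate 1, 8 members of the family fell, and 2 fell with a stricter filter on low counts, which left out members near or below 5 CPM.

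The second family of CDK inhibitors is that of the KIP-related proteins. Of its 7 genes, 4 rose (57.1%, against 9.3% of all loci) and none fell. KRP5 was at 10.9, 9.6, 9.92 and 9.61 CPM in scl28 and at 6.67, 6.56, 5.53 and 5.01 CPM in WT (log2 fold change 0.75 ± 0.1, edgeR adjusted p = 8.16e-05). KRP3 was at 22.2, 17.6, 21.7 and 15.9 CPM in scl28 and at 13.5, 11.7, 9.39 and 6.99 CPM in WT (0.90 ± 0.17, adjusted p = 0.00138). For both genes all scl28 libraries lay above all WT libraries. KRP7 rose by 0.67 (edgeR adjusted p = 0.0126) with overlapping libraries. Its call was lost without WT replicates 3 and 4 and with only the libraries of scl28 and WT in the fit. KRP2 rose by 0.36 (edgeR adjusted p = 0.0355), a call lost without any of 5 libraries, scl28 replicates 2, 3 and 4 and WT replicates 1 and 2, with adjusted p up to 0.0867. KRP1 was at a log2 fold change of -0.20 (adjusted p = 0.573).

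**Figure D1:**
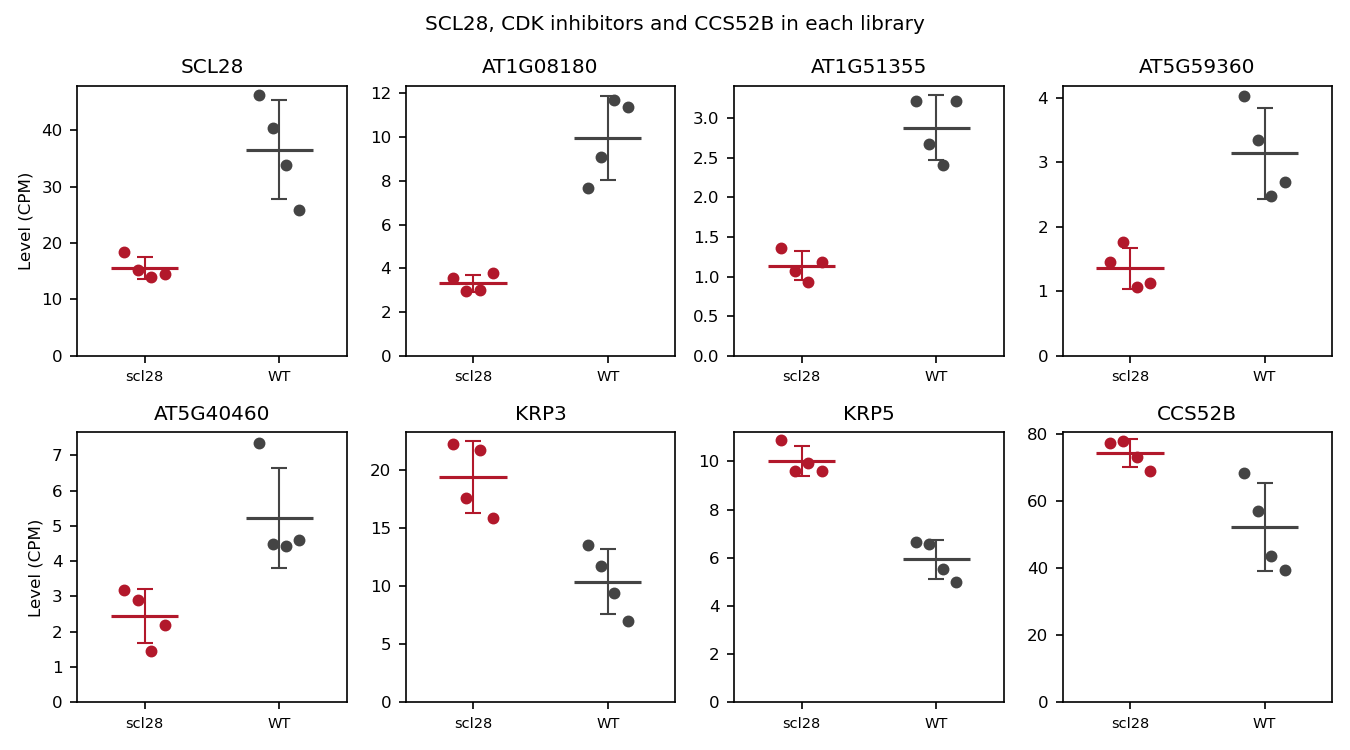
Level in CPM (vertical axes, from 0) of SCL28, 4 SIAMESE-related loci, KRP3, KRP5 and CCS52B in scl28 and WT. Each point is 1 library, in the order of the replicate numbers, the line is the mean and the error bar the SD over 4 libraries. The 4 SIAMESE-related loci and SCL28 are lower in all scl28 libraries, and KRP3, KRP5 and CCS52B are higher in all scl28 libraries, than in any WT library.

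Genes of the mitotic wave were higher on average in scl28, but the count of calls depended on the libraries of both genotypes and on the fit. Of 29 G2/M genes 17 rose (58.6%, against 9.3% of all loci) and none fell, with a median log2 fold change of 0.44. The summed level of the list was 1190, 1250, 1140 and 1090 CPM in scl28 replicates 1 to 4 and 1150, 945, 730 and 657 CPM in WT replicates 1 to 4. WT replicate 1 lay among the scl28 libraries and the other 3 WT libraries lay below them, in the same order as for the leaf genes. The count of G2/M genes that rose was 3 without WT replicates 3 and 4, 7 without WT replicate 3 and also 7 without WT replicate 4 or without scl28 replicate 2. It was 9 without scl28 replicate 1, 11 without scl28 replicate 3, and 27 without WT replicate 1. It was 5 with only the libraries of scl28 and WT in the fit. The part of the leaf content in this result was not tested beyond a fit with the leaf score as a covariate, in which 28 rose.

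CDKB1;1, a plant-specific CDK of the G2 and M phases, kept its call in every alternative that tested it, at 31.1, 42.8, 33.0 and 31.8 CPM in scl28 and at 26.3, 24.3, 18.7 and 18.7 CPM in WT (log2 fold change 0.66 ± 0.12, edgeR adjusted p = 0.00127). All scl28 libraries were above all WT libraries. CYCB1;2, whose promoter is shown above, was at 72.6, 83.9, 76.1 and 72.2 CPM in scl28 and at 74.1, 61.7, 44.2 and 38.7 CPM in WT (0.48 ± 0.15, edgeR adjusted p = 0.0389), so that WT replicate 1 was inside the range of scl28. The calls of CYCB1;1 (0.60) and CYCB1;2 were each lost without any of 5 libraries, scl28 replicates 1, 2 and 3 and WT replicates 3 and 4, with edgeR adjusted p up to 0.117 and 0.123. KN, the syntaxin of the cell plate (log2 fold change 0.52, edgeR adjusted p = 0.0292), lost its call without any of scl28 replicates 1 and 2 and WT replicates 3 and 4 (up to 0.0959). AUR1, an Aurora kinase (0.46, edgeR adjusted p = 0.0184), lost its call without any of scl28 replicate 3 and WT replicates 3 and 4 (up to 0.0619). Against d14-7 and against the ckx3 ckx5-labelled libraries, where 42.5% and 24.7% of all loci differed, 2 and 0 of the 29 G2/M genes were higher in scl28 and 4 and 0 were lower.

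None of 19 S phase genes, such as those of the replication licensing complex, rose or fell, and their median log2 fold change was 0.28. Their sum was 995, 983, 863 and 771 CPM in scl28 replicates 1 to 4 and 1000, 799, 599 and 514 CPM in WT replicates 1 to 4. WT replicate 1 was above all scl28 libraries, WT replicate 2 was among them and the other WT libraries were below. With the leaf score as a covariate 16 S phase genes rose, without WT replicate 1, 13 rose, without scl28 replicate 4, 2 rose, and DESeq2 called 1. Of 9 D-type cyclins tested, 1 rose (11.1%, against 9.3% of all loci) and none fell. It was CYCD4;1, which rose by 0.47 (edgeR adjusted p = 0.00368), at 8.83 to 11.6 CPM in scl28 and 6.52 to 7.51 CPM in WT. Without WT replicate 1, 2 D-type cyclins rose, and without scl28 replicate 2, 1 fell.

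Among 15 regulators of the cell cycle, 4 rose (26.7%, against 9.3% of all loci) and none fell. MYB3R4, an activator of the mitotic wave, was at 41.8, 38.6, 42.0 and 40.7 CPM in scl28 and at 37.9, 32.2, 30.1 and 25.8 CPM in WT (log2 fold change 0.38 ± 0.09, edgeR adjusted p = 0.00735). CCS52B, an activator of the anaphase-promoting complex, rose by 0.51 (edgeR adjusted p = 0.0131), with all scl28 libraries above all WT libraries. The call of CCS52A2 (0.35) was lost without WT replicate 3 (edgeR adjusted p = 0.0563) and that of E2FB (0.42) without any of scl28 replicates 1 and 3 and WT replicates 3 and 4 (up to 0.0861). Without WT replicates 3 and 4, 1 of the 15 regulators rose, and MYB3R4 and CCS52B lost their calls. The count was 2 without WT replicate 3. With only the libraries of scl28 and WT in the fit, none of the 15 rose.

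Within the GRAS family, 29 of 30 listed loci besides SCL28 were tested, and 2 rose (6.9%) and 5 fell (17.2%), against 9.3% and 10.5% of all loci. No GRAS locus fell without WT replicates 3 and 4, 3 fell without scl28 replicate 3, and 2 fell without any of scl28 replicates 1 and 2 and WT replicates 3 and 4. The count that rose was 4 without scl28 replicate 2 and 1 without any of scl28 replicates 1, 3 and 4 and WT replicates 2 and 3.

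Salicylic acid is the signal of defence against biotrophic pathogens, and its listed genes fell in scl28. All 21 did so, against 10.5% of all loci, with a median log2 fold change of -0.99. Of them, 18 had no overlap between the scl28 and WT libraries, where 9.11% of all loci were lower in scl28 with no overlap. PR1, a secreted marker of this pathway, was at 7.24, 6.78, 5.87 and 3.8 CPM in scl28 and at 100, 90.8, 114.0 and 239.0 CPM in WT (log2 fold change -4.52 ± 0.44, edgeR adjusted p = 1.02e-05). PR2, a glucanase, was at 60.1, 35.4, 53.3 and 26.1 CPM in scl28 and at 163.0, 157.0, 210.0 and 396.0 CPM in WT (-2.41 ± 0.32, adjusted p = 0.000126). PR5, a thaumatin-like protein, was at 29.8, 21.9, 33.6 and 23.9 CPM in scl28 and at 76.7, 98.9, 94.0 and 144.0 CPM in WT (-1.92 ± 0.24, adjusted p = 4.92e-05). All 3 genes were lower in every scl28 library than in any WT library, and WT replicate 4 was the highest library for each.

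The genes that make and transport the signal also fell. PBS3, which conjugates isochorismate to glutamate on the way to salicylic acid, was at 2.34, 1.72, 2.32 and 1.7 CPM in scl28 and at 10.9, 4.1, 6.95 and 22.2 CPM in WT (log2 fold change -2.45 ± 0.5, edgeR adjusted p = 0.0027). EDS5, which exports the precursor from the chloroplast, fell by 1.23 (edgeR adjusted p = 2.35e-05). SARD1, a transcriptional activator of this synthesis, fell by 1.32 (adjusted p = 4.92e-05). WRKY38 fell by 1.99 (adjusted p = 3.97e-05) and WRKY70 by 0.63 (adjusted p = 0.000634). FMO1 and ALD1, which make the mobile signal N-hydroxypipecolic acid, were close to 0 in scl28, at 0.0 to 0.162 CPM each, and at 0.383 to 3.01 and 0.423 to 1.13 CPM in WT, so that their fitted values of -4.62 and -3.74 (edgeR adjusted p = 0.00127 and 0.0029) depend on the prior count. Smaller changes were those of NPR1, the receptor (-0.25, edgeR adjusted p = 0.025), and ICS1, the isochorismate synthase (-0.57, edgeR adjusted p = 0.0288). The call of NPR1 was lost without any of scl28 replicates 1, 2 and 3 and WT replicates 3 and 4 (adjusted p up to 0.0888). That of ICS1 was lost without any of scl28 replicates 2, 3 and 4 and WT replicate 4 (up to 0.109).

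The summed level of the salicylic acid list was 454, 438, 490 and 425 CPM in scl28 and 969, 834, 1070 and 1560 CPM in WT, with WT replicate 4 the highest and no overlap. At least 17 of the 21 genes fell in each of 19 alternative settings, those without WT replicates 3 and 4 included. Against d14-7, scl28 was lower for 14 of the 21 genes and higher for 1, where 20.0% of all loci were lower and 22.5% higher. Against the ckx3 ckx5-labelled libraries it was lower for 1 gene, PR1 (-1.71, edgeR adjusted p = 0.00695), and higher for 5, where 11.5% of all loci were lower and 13.1% higher.

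**Figure D2:**
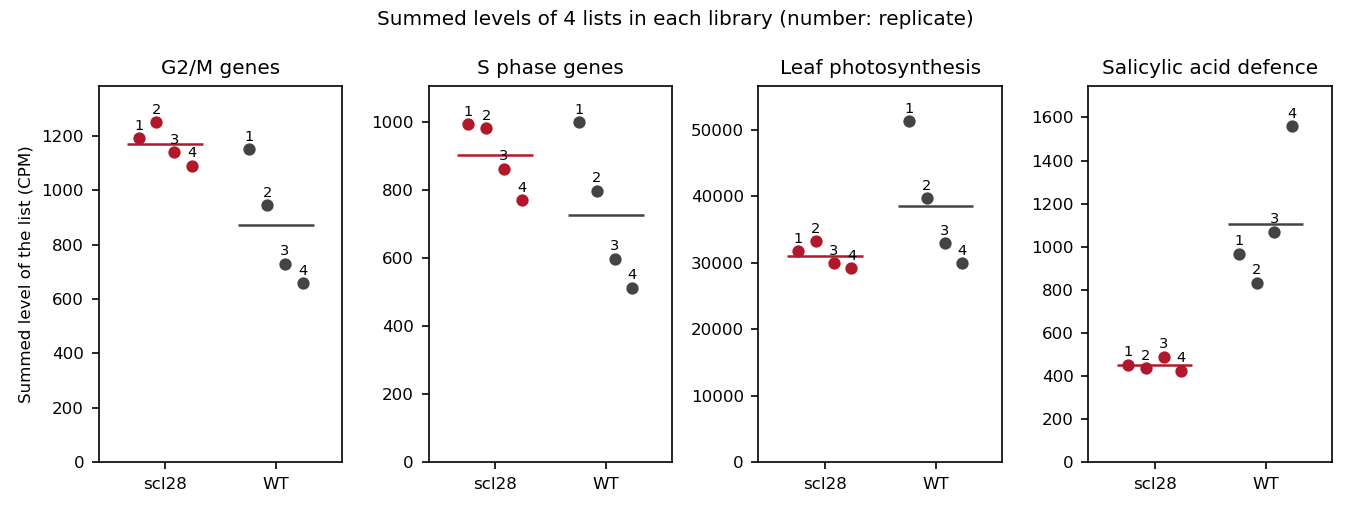
Summed level in CPM (vertical axes, from 0) of the G2/M, S phase, leaf photosynthesis and salicylic acid defence lists in scl28 and WT. Each point is 1 library with its replicate number and the line is the mean. For the first 3 lists WT replicates 1 to 4 run downwards over a range that includes scl28 libraries, and for salicylic acid defence all scl28 libraries, at 425 to 490 CPM, lie below all WT libraries, at 834 to 1560 CPM.

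Of 22 jasmonate genes, 12 fell (54.5%, against 10.5% of all loci) and none rose, with a median log2 fold change of -0.80. Plant defensins were among them. PDF1.2 was at 5.36, 9.81, 0.667 and 1.07 CPM in scl28 and at 54.3, 33.4, 74.9 and 103.0 CPM in WT (-4.02 ± 0.59, edgeR adjusted p = 0.000337), and PDF1.2C (-4.04) and PDF1.3 (-4.62) were as low. These defensins are near-identical copies of each other, and how their reads were shared out is uncertain. LOX4, a lipoxygenase of jasmonate synthesis, was at 5.94, 4.92, 6.94 and 4.36 CPM in scl28 and at 36.4, 11.2, 14.2 and 11.2 CPM in WT (-1.71 ± 0.33, edgeR adjusted p = 0.00189). AOC2, an allene oxide cyclase, was at 1.82, 1.93, 1.39 and 1.16 CPM in scl28 and at 23.3, 4.74, 4.12 and 3.69 CPM in WT (-2.51 ± 0.62, edgeR adjusted p = 0.0109). WT replicate 1 was the highest library for LOX4 and AOC2, and both genes were lower in every scl28 library than in the other WT libraries too. The call of AOC2 was lost with limma-voom and with the leaf score as a covariate. MYC2, the main transcription factor of the pathway, was at a log2 fold change of -0.11 (edgeR adjusted p = 0.709). In all 19 alternatives 8 to 12 of the 22 genes fell and none rose.

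Of 17 glucosinolate genes tested, 5 fell (29.4%, against 10.5% of all loci) and none rose. Of the 5, 4 belong to the indolic branch that starts from tryptophan. CYP83B1 was at 275.0, 258.0, 283.0 and 302.0 CPM in scl28 and at 514.0, 523.0, 578.0 and 586.0 CPM in WT (log2 fold change -0.98 ± 0.08, edgeR adjusted p = 8.29e-07). CYP79B2 fell by 0.99 (adjusted p = 0.000183), CYP79B3 by 0.80 (adjusted p = 0.00764) and MYB51, the activator of the branch, by 1.41 (adjusted p = 0.00174). None of these 4 genes overlapped between scl28 and WT. Without WT replicate 1, 10 of the 17 genes fell. Of 9 senescence genes, 4 fell (44.4%) and none rose. Among the 4 were SAG21 (-2.02, edgeR adjusted p = 4.43e-05), SAG13 (-1.58, adjusted p = 9.34e-05) and WRKY6 (-0.59, adjusted p = 0.00271). Of 7 wounding and touch genes, which respond to handling, 3 fell (42.9%) and none rose.

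Genes of the circadian clock were mostly higher in scl28. Of 24 clock genes, 16 rose (66.7%) and 1 fell (4.17%), against 9.3% and 10.5% of all loci, with a median log2 fold change of 0.48. With no overlap between scl28 and WT, 15 were higher and 1 lower, against 9.65% and 9.11% of all loci. CCA1 and LHY, MYB factors that peak at dawn, moved together. CCA1 was at 364.0, 331.0, 336.0 and 330.0 CPM in scl28 and at 138.0, 144.0, 133.0 and 140.0 CPM in WT (1.3 ± 0.07, edgeR adjusted p = 1.32e-08). LHY was at 548.0, 521.0, 518.0 and 518.0 CPM in scl28 and at 260.0, 259.0, 256.0 and 257.0 CPM in WT (1.03 ± 0.07, adjusted p = 1.21e-07). The spread within each genotype was far smaller than the difference between them. RVE1, RVE2 and RVE8, relatives of CCA1, rose by 1.36, 2.05 and 0.80 (edgeR adjusted p = 5.21e-07, 9.17e-07 and 1.88e-07).

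Genes that peak later in the day or in the evening were mixed. Of the pseudo-response regulators, PRR3 was at 2.24 to 2.56 CPM in scl28 and at 0.855 to 1.01 CPM in WT (log2 fold change 1.37, edgeR adjusted p = 1.08e-05). PRR7 fell, at 64.6 to 71.0 CPM in scl28 and 76.1 to 90.2 CPM in WT (-0.29, adjusted p = 0.00215). PRR5 rose by 0.58 (edgeR adjusted p = 0.048), a call lost without any of 6 libraries, scl28 replicates 1 to 3 and WT replicates 1 to 3 (adjusted p up to 0.116). Of the evening genes, ELF4 rose by 1.64 (edgeR adjusted p = 0.00496) at low levels, 0.408 to 0.747 CPM in scl28 and 0.13 to 0.214 CPM in WT, and BOA rose by 1.44 (adjusted p = 0.00154). TOC1 (0.06, edgeR adjusted p = 0.658), GI (0.27, adjusted p = 0.109) and LUX (0.14, adjusted p = 0.294) did not pass. The call of PRR3 was lost when single transcript models were tested.

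Among 18 clock outputs and light-responsive genes, 9 rose and 4 fell. COL2, a CONSTANS-like factor, was at 106.0, 114.0, 97.9 and 87.4 CPM in scl28 and at 36.5, 34.7, 29.3 and 31.6 CPM in WT (log2 fold change 1.62 ± 0.09, edgeR adjusted p = 4.84e-08). HY5, a bZIP factor of the light response, was at 36.4, 42.2, 35.7 and 29.8 CPM in scl28 and at 17.1, 15.5, 14.1 and 16.4 CPM in WT (1.19 ± 0.1, adjusted p = 1.01e-06), and its homologue HYH rose by 0.92 (adjusted p = 0.000481). Neither COL2 nor HY5 overlapped between scl28 and WT. GRP7, whose promoter with 3 evening elements is shown above, was at 192.0, 181.0, 198.0 and 173.0 CPM in scl28 and at 97.0, 94.9, 87.5 and 85.5 CPM in WT (1.03 ± 0.08, edgeR adjusted p = 8.48e-07). Its relative GRP8 fell by 0.54 (edgeR adjusted p = 6.64e-05). CDF2, a repressor of CONSTANS, rose by 0.93 (adjusted p = 5.61e-05) and BBX32 by 0.99 (adjusted p = 0.000165). CCL, with a log2 fold change of -1.51 (edgeR adjusted p = 0.000284), and PIF4, a growth-promoting bHLH factor at -0.68 (adjusted p = 0.000166), were the largest falls of this list.

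In all 19 alternatives 11 to 16 clock genes and 8 to 10 of the outputs rose. CCA1 stood at 330.0 to 364.0 CPM in scl28, 105 to 114.0 CPM in d14-7, 23.7 to 29.9 CPM in the ckx3 ckx5-labelled libraries and 133.0 to 144.0 CPM in WT. The 4 genotypes did not overlap for this gene. The hour of each harvest within the span of 9 to 11 is not given for single pools, and its part in the clock values was not tested.

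**Figure D3:**
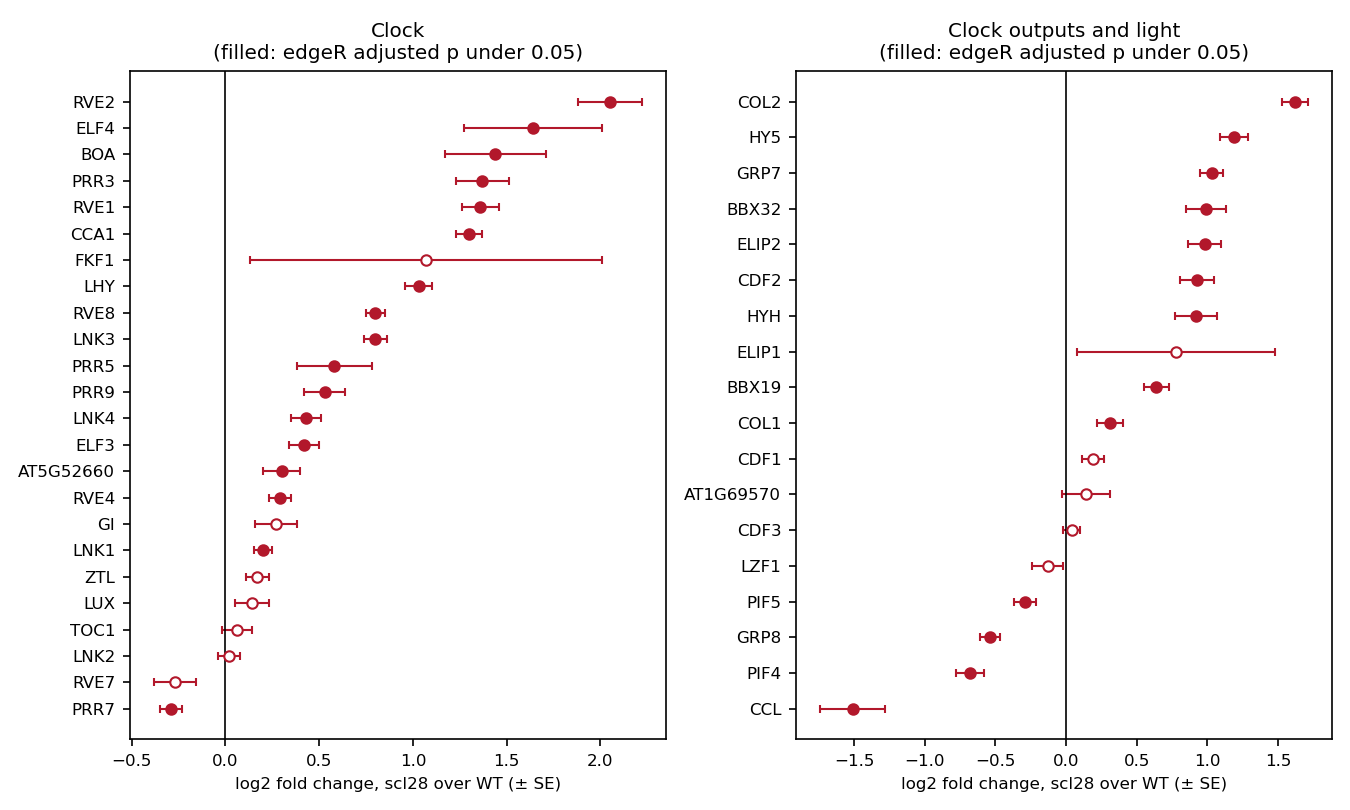
Log2 fold change of scl28 over WT (horizontal axes, error bars ± SE) of 24 clock genes and 18 clock outputs and light-responsive genes. Filled points passed the edgeR test and open points did not. CCA1 and LHY lie at 1.3 and 1.03 with small errors, and PRR7 on the left panel and CCL, PIF4 and GRP8 among those on the right panel lie below 0.

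The flavonoid genes make and control plant pigments. Of 13 genes 10 rose (76.9%, against 9.3% of all loci) and none fell, with a median log2 fold change of 0.64. TT7, the flavonoid 3′-hydroxylase, was at 145.0, 164.0, 166.0 and 141.0 CPM in scl28 and at 60.1, 87.9, 81.4 and 69.6 CPM in WT (1.04 ± 0.2, edgeR adjusted p = 0.00166). F3H, the flavanone 3-hydroxylase, was at 249.0, 305.0, 279.0 and 238.0 CPM in scl28 and at 146.0, 174.0, 154.0 and 139.0 CPM in WT (0.81 ± 0.16, adjusted p = 0.00244). Both enzymes were higher in all scl28 libraries. PAP2, a MYB activator of anthocyanin genes, rose by 1.56 (edgeR adjusted p = 0.0027), whereas CHS, the first enzyme of the pathway, was at 0.11 (adjusted p = 0.665). The count of genes that rose was 7 to 11 in the 19 alternatives.

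Of 12 sulfur deficiency genes 9 rose (75.0%, against 9.3% of all loci) and none fell, with a median of 0.57. APR2, the reductase of sulfate assimilation, was at 178.0, 186.0, 185.0 and 156.0 CPM in scl28 and at 94.3, 112.0, 103.0 and 103.0 CPM in WT (log2 fold change 0.77 ± 0.09, edgeR adjusted p = 3.31e-05). LSU3 was at 2.1 to 3.72 CPM in scl28 and 0.748 to 1.32 CPM in WT (1.66 ± 0.32, edgeR adjusted p = 0.00183), and SDI1 rose by 1.24 (adjusted p = 0.0122). No library of these 3 genes overlapped, and the call of SDI1 was lost without WT replicates 3 and 4. The group count was 7 to 9 in the 19 alternatives.

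In the strigolactone and karrikin list, 5 of 16 genes rose (31.2%) and 1 fell (6.25%), against 9.3% and 10.5% of all loci. The count that rose was 2 without scl28 replicate 1 and 3 without scl28 replicate 3 or WT replicate 2. MAX4, a carotenoid cleavage dioxygenase that makes the strigolactone precursor, was at 8.18, 7.3, 9.31 and 7.88 CPM in scl28 and at 2.83, 3.99, 2.5 and 3.43 CPM in WT (log2 fold change 1.36 ± 0.15, edgeR adjusted p = 1.57e-05). Its partner MAX3 rose by 1.03 (edgeR adjusted p = 0.0257), a call lost without any of 5 libraries, scl28 replicates 1 and 3 and WT replicates 1 to 3 (up to 0.088). AT3G24420, annotated as an alpha/beta-hydrolase, was at 3.17 to 5.16 CPM in scl28 and 1.66 to 2.42 CPM in WT (1.07, edgeR adjusted p = 0.00909), a call lost without WT replicates 3 and 4. The repressors SMXL6 and SMXL8 rose by 0.29 and 0.36 (edgeR adjusted p = 0.0219 and 0.0175) and SMAX1, that of karrikin signalling, fell by 0.20 (adjusted p = 0.0328). Those 3 calls were lost without 1 library, SMXL6 without scl28 replicate 1 or WT replicate 2 (up to 0.0653), SMXL8 without scl28 replicate 1 or 3 (up to 0.0573), and SMAX1 without any of scl28 replicates 2 and 3 and WT replicates 3 and 4 (up to 0.122). The level of MAX4 in d14-7, 31.6 to 45.5 CPM, was above that of scl28.

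Of 9 genes linked to bud dormancy, 1 rose and 1 fell (11.1% each), shares near those of all loci, 9.3% and 10.5%. The count that rose was 4 without WT replicates 3 and 4. HB40, a homeobox factor that acts downstream of BRC1, was at 7.14, 7.43, 7.47 and 6.25 CPM in scl28 and at 3.58, 4.35, 4.56 and 4.48 CPM in WT (log2 fold change 0.74 ± 0.18, edgeR adjusted p = 0.00782). DRM2 was at 2.79, 3.2, 2.24 and 2.98 CPM in scl28 and at 5.2, 9.05, 8.6 and 18.2 CPM in WT (-1.89 ± 0.34, adjusted p = 0.00104). HB40 was higher and DRM2 lower in all scl28 libraries. BRC1, the branching repressor, was at 9.9, 5.44, 9.26 and 9.36 CPM in scl28 and at 6.8, 6.91, 6.27 and 7.99 CPM in WT (0.28 ± 0.19, edgeR adjusted p = 0.333), and DRM1 was at -0.20 (adjusted p = 0.619). Against d14-7, scl28 was higher for 8 of the 9 genes, with a median log2 difference of 3.29, against 22.5% of all loci that were higher in scl28 in that comparison.

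The shares of hormone genes that changed differed between lists, beside 9.3% of all loci that rose and 10.5% that fell. Among cytokinin genes, 1 of 8 type-A response regulators rose (12.5%), ARR9 by 0.53 (edgeR adjusted p = 0.00521), a call lost without WT replicates 3 and 4. Without WT replicate 1, 2 of these regulators rose, and without WT replicate 4, 1 fell. Of 23 genes of synthesis, breakdown and reception, 2 rose (8.7%) and 1 fell (4.35%), both shares below those of all loci. CKX6, a cytokinin oxidase, rose by 0.46 (edgeR adjusted p = 0.00256). IPT3, an enzyme of cytokinin synthesis, was at 19.7, 13.7, 13.7 and 13.7 CPM in scl28 and 20.5, 23.7, 26.3 and 23.7 CPM in WT (-0.63 ± 0.13, edgeR adjusted p = 0.00259). IPT3 was lower in every scl28 library. Of the list, 1 gene rose without any of scl28 replicate 1 and WT replicates 3 and 4, 3 fell without WT replicate 1, and 2 fell without scl28 replicate 4 or WT replicate 4.

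Of 17 auxin response genes, 1 rose (5.88%) and 4 fell (23.5%), against 9.3% and 10.5% of all loci. The count that fell was 2 without any of scl28 replicates 1 and 2 and WT replicates 3 and 4. The count that rose was 2 without WT replicate 1 or 2. GH3.3, which conjugates auxin, was at 27.6, 27.8, 29.9 and 30.0 CPM in scl28 and 43.1, 47.6, 64.0 and 45.3 CPM in WT (-0.79 ± 0.13, edgeR adjusted p = 0.000382), GH3.6 fell by 0.70 (adjusted p = 0.00393, lost without WT replicates 3 and 4), and IAA17, a repressor of the response, rose by 0.53 (adjusted p = 0.000598). Of 22 genes of auxin synthesis and transport, 2 rose and 2 fell (9.09% each), shares near those of all loci. None fell without any of scl28 replicates 1 and 2 and WT replicate 2, 1 fell without WT replicate 3 or 4, and 5 rose without WT replicate 1. PID, a protein kinase of auxin transport, was at 41.0, 31.1, 42.4 and 38.7 CPM in scl28 and at 28, 28.3, 27.6 and 25.9 CPM in WT (0.48 ± 0.08, edgeR adjusted p = 0.000459).

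Of 17 gibberellin genes, 4 rose (23.5%) and none fell, against 9.3% and 10.5% of all loci. Among the 4 were GA3, the ent-kaurene oxidase (0.27, edgeR adjusted p = 0.00886), and GASA4, a gibberellin-induced gene (0.50, adjusted p = 0.0109). Both calls were lost without WT replicates 3 and 4, and that of GASA4 also with only the libraries of scl28 and WT in the fit. The count that rose was 2 without WT replicate 2 and 1 with only those libraries. Of 25 abscisic acid genes, 5 rose and 3 fell. HB12, a homeobox gene induced by drought, was at 67.7, 73.2, 68.0 and 60.6 CPM in scl28 and 28.3, 38.2, 38.5 and 47.9 CPM in WT (0.82 ± 0.13, edgeR adjusted p = 0.000367), ABF1 rose by 0.46 (adjusted p = 0.00192) and COR15A by 0.62 (adjusted p = 0.00415), while COR47 fell by 0.54 (adjusted p = 0.0101). Without WT replicates 3 and 4, 10 abscisic acid genes rose and none fell, and COR47 lost its call. It was lost as well with only the libraries of scl28 and WT in the fit, where none of the list fell. Without WT replicate 4, 8 rose and 1 fell, and 1 also fell without any of scl28 replicates 1, 2 and 4 and WT replicate 2.

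Of 26 meristem and boundary genes, 5 rose (19.2%) and 1 fell (3.85%), against 9.3% and 10.5% of all loci. CUC3, a NAC factor of the boundary in which axillary meristems start, was at 8.5, 8.02, 7.36 and 7.41 CPM in scl28 and at 3.74, 3.63, 3.12 and 2.77 CPM in WT (log2 fold change 1.24 ± 0.14, edgeR adjusted p = 2.83e-05). CUC2 was at 5.71, 4.03, 3.92 and 4.02 CPM in scl28 and at 2.54, 2.81, 3.27 and 2.72 CPM in WT (0.64 ± 0.18, adjusted p = 0.0209). Both were higher in all scl28 libraries, and the call of CUC2 was lost without scl28 replicate 1 or WT replicate 4 (up to 0.0795). Without scl28 replicate 1, 3 genes of the list rose, and without WT replicate 1, 2 fell. ATH1, a homeobox factor of the stem base, rose by 0.57 (edgeR adjusted p = 0.000106), and HB8, a factor of vascular cells, fell by 0.41 (adjusted p = 7.83e-05). CUC3 was also higher in scl28 than in d14-7 (1.14, edgeR adjusted p = 1.52e-05) and than in the ckx3 ckx5-labelled libraries (1.1, adjusted p = 2.46e-05).

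Of 21 flowering genes, 5 rose (23.8%) and none fell, against 9.3% and 10.5% of all loci. The count that rose was 2 without scl28 replicate 3 and 3 without WT replicate 3, and 2 fell without WT replicate 1. AP1, a MADS factor of the floral meristem, was at 3.51, 5.51, 6.08 and 5.97 CPM in scl28 and at 3.02, 2.07, 2.88 and 2.16 CPM in WT (log2 fold change 1.06 ± 0.28, edgeR adjusted p = 0.0142). LFY rose by 0.60 (adjusted p = 0.0153) and AP2 by 0.31 (adjusted p = 0.003). The call of AP1 was lost without WT replicates 3 and 4. That of LFY was lost without scl28 replicate 3 (edgeR adjusted p = 0.0602) and with only the libraries of scl28 and WT in the fit. The sum of 7 floral organ genes was 7.53 to 16.6 CPM in scl28 and 4.96 to 8.65 CPM in WT, and its part in these results was not tested. Of 10 SPL genes, which promote the adult phase, 3 rose (30.0%), among them SPL4 by 0.49 (edgeR adjusted p = 0.00899), and 5 rose without WT replicate 1.

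Of 17 sugar starvation and trehalose phosphate synthase genes, 5 fell (29.4%, against 10.5% of all loci) and none rose. ASN1, the dark-induced asparagine synthetase, was at 7.73, 7.3, 12.4 and 13.3 CPM in scl28 and at 23.2, 18.6, 47.9 and 58.3 CPM in WT (log2 fold change -1.86 ± 0.31, edgeR adjusted p = 0.000653), and TPS8 fell by 0.80 (adjusted p = 0.00219). Their libraries did not overlap between scl28 and WT. The count that fell was 2 without WT replicates 3 and 4, 3 without any of WT replicates 3 and 4 or scl28 replicates 1, 2 and 3, and 8 without WT replicate 1. Of 11 genes of sugar export, 1 rose (9.09%) and 2 fell (18.2%), against 9.3% and 10.5% of all loci. SUC1, a sucrose carrier, was at 11.9 to 18.0 CPM in scl28 and 31.9 to 70.8 CPM in WT (-1.72, edgeR adjusted p = 5.25e-05), and SWEET14 was at 9.5 to 12.8 CPM in scl28 and 2.24 to 6.95 CPM in WT (1.2, adjusted p = 0.00193). SWEET16 was at 1.4 to 2.13 CPM in scl28 and 3.08 to 4.1 CPM in WT (-1.1, edgeR adjusted p = 0.000526). SWEET10 had the lowest fitted value of the list, -2.49 (edgeR adjusted p = 0.0973), close to 0 in both groups, at 0.0 to 0.0344 CPM in scl28 and 0.0 to 0.206 CPM in WT. Without WT replicate 1, 2 genes of the list rose. Of 16 genes of wall loosening, 2 rose and 2 fell (12.5% each), shares near those of all loci. The count that rose was 4 without WT replicate 1 and 1 without scl28 replicate 1 or 3. EXPA8, an expansin, was at 3.08, 2.51, 1.39 and 3.96 CPM in scl28 and at 9.66, 12.5, 12 and 12.4 CPM in WT (-2.10 ± 0.28, edgeR adjusted p = 8.9e-05), and EXPA15, of the same family, rose by 0.65 (adjusted p = 0.0001). XTH24, a xyloglucan-modifying enzyme, fell by 1.22 (adjusted p = 0.001).

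Of 25 xylem and lignin genes 1 rose and 3 fell, shares below and near the 9.3% and 10.5% of all loci. Of 5 nitrate genes 2 fell, a share above that of all loci. That nitrate count was 1 without any of scl28 replicates 1 to 3 and WT replicates 3 and 4. Of 11 brassinosteroid genes 1 rose (9.09%, near the share of all loci), or none without any of scl28 replicates 2 and 4 and WT replicates 1 and 3. Without scl28 replicate 4, 2 brassinosteroid genes fell, and without WT replicate 1, 1 fell. None of 3 phloem genes or of the 2 root genes tested changed, though 1 phloem gene fell without scl28 replicate 4 or WT replicate 1.

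**Figure D4:**
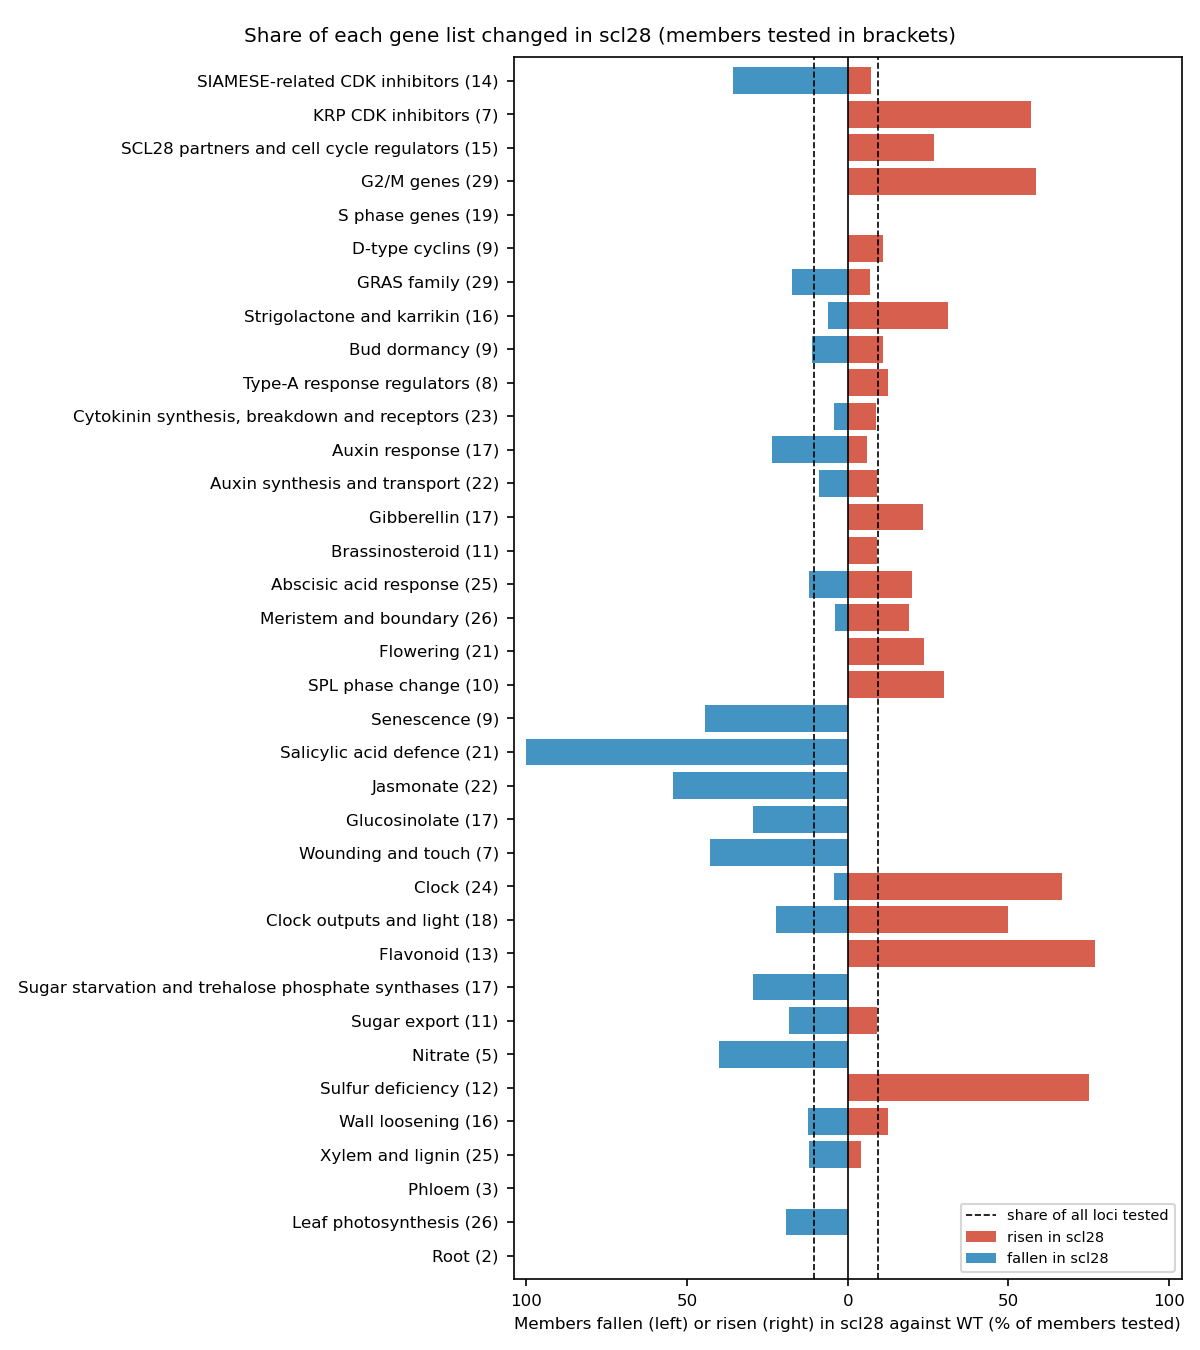
Share of the tested members of each of 36 gene lists that rose (right) or fell (left) in scl28 against WT, in %, with the number of members tested in brackets. Dashed lines mark the shares of all loci tested, 9.3% risen and 10.5% fallen. The salicylic acid bar reaches 100% on the left, and the flavonoid, sulfur, clock and G2/M bars reach 76.9%, 75.0%, 66.7% and 58.6% on the right.

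Among all loci with a mean of at least 5 CPM and no overlap between scl28 and WT, the largest rise was that of BGLU47, a beta-glucosidase, at 70.3, 70.2, 61.9 and 51.2 CPM in scl28 and at 15.1, 12.5, 13.3 and 10.3 CPM in WT (log2 fold change 2.31 ± 0.15, edgeR adjusted p = 1.21e-07). GPT2, the inducible glucose-6-phosphate translocator of the plastid, was at 13.0, 9.84, 19.9 and 8.32 CPM in scl28 and at 1.72, 2.85, 2.15 and 3.72 CPM in WT (2.29 ± 0.42, adjusted p = 0.00136). For both genes every scl28 library was above every WT library, which the rule for this ranking required. Then came AT5G35935, an uncharacterized protein (1.81), COL2, AT1G48100, of the pectin lyase-like superfamily (1.59), AT3G55580, of the RCC1 family (1.5), MAX4, RVE1, AT3G51238 (1.32), AT2G21130, a cyclophilin-like isomerase (1.31), CCA1 and CXE13, a carboxylesterase (1.26). AT3G51238, annotated as other RNA, overlaps F3H on the opposite strand, and the library kit does not mark strand, so that their reads cannot be told apart.

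The largest fall was MRD1, a gene named for its lower level in the mto1 mutant, at chr1:19963047-19964712 on the minus strand. It had 1, 4, 2 and 8 counts in the scl28 libraries and 1924, 1729, 1917 and 2171 counts in the WT libraries. Its levels were 0.0325 to 0.251 CPM in scl28 and 56.4 to 62.6 CPM in WT (log2 fold change -8.95, edgeR adjusted p = 2.18e-15). With so few counts in scl28, the size of this fitted value depends on the prior count. MRD1 stood at 57.6 to 64.0 CPM in d14-7 and 66.1 to 72.3 CPM in the ckx3 ckx5-labelled libraries. MRD1 was the only locus below 0.5 CPM in every scl28 library and at least 2 CPM in each of the other libraries, and no locus showed the reverse. It lies on the same chromosome as SCL28.

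The other falls by the same rule included AT3G16670, of the pollen Ole e 1 family (-5.46), PR1, PCR1 (-4.48), PDF1.2C, PDF1.2, FAMT, a farnesoic acid methyltransferase (-3.97), BIP3, an Hsp70 chaperone of the endoplasmic reticulum (-3.48), AT4G10500, an oxygenase (-3.18), AT2G43590, of the chitinase family (-3.01), Prx37, a peroxidase (-2.96), and AT3G28510, a P-loop hydrolase (-2.79). AT3G16670 was at 0.0942 to 0.688 CPM in scl28 and at 33.6, 8.02, 3.5 and 1.32 CPM in WT, and FAMT was at 0.471 to 1.41 CPM in scl28 and at 41.9, 7.66, 8.54 and 3.95 CPM in WT. In both genes WT replicate 1 was the highest library, as in LOX4 and AOC2. The call of AT3G16670 was lost with limma-voom (adjusted p = 0.135). AT2G43590 was at 5.29, 5.13, 4.75 and 6.59 CPM in scl28 and at 33.7, 49.6, 59.2 and 33.0 CPM in WT (edgeR adjusted p = 8.95e-06).

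To see which changes set scl28 apart from all other genotypes, loci were counted that differed from WT, from d14-7 and from the ckx3 ckx5-labelled libraries in the same direction, each with an edgeR adjusted p under 0.05. The 3 comparisons share the scl28 libraries, and each sets harvest day 25 against day 23. Genotype and harvest day therefore cannot be told apart in any of them. There were 1178 such loci (5.62% of those tested), 682 higher (3.26%) and 496 lower (2.37%) in scl28. Among the lists, 10 of 24 clock genes, 8 of 13 flavonoid genes and 7 of 18 clock outputs stood higher in scl28 than in all 3, and 4 of the 14 SIAMESE-related loci, 4 of 17 glucosinolate genes and 4 of 26 leaf genes stood lower. No G2/M gene did either.

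By the smallest of their 3 differences, the loci that stood highest included COL2, AT1G48100, RVE1, CCA1, HY5, BBX31, AT1G60590 and AT3G61490. COL2 was at 87.4 to 114.0 CPM in scl28, 26.0 to 30.9 CPM in d14-7, 6.29 to 8.06 CPM in the ckx3 ckx5-labelled libraries and 29.3 to 36.5 CPM in WT. AT1G48100, AT1G60590 and AT3G61490 are all annotated to the pectin lyase-like superfamily of cell wall enzymes, and their log2 fold changes against WT were 1.59, 1.16 and 1.09 (edgeR adjusted p = 9.18e-06, 8.29e-07 and 1.21e-07). BBX31, a B-box factor of light signalling, was at 9.11 to 14.5 CPM in scl28 and 4.23 to 6.01 CPM in WT.

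The loci that stood lowest were MRD1, FAMT, AOC2, AT1G15125, an S-adenosylmethionine-dependent methyltransferase, EXPA8, SP1L2, a SPIRAL1-like microtubule protein, ST2A, a sulfotransferase of hydroxyjasmonate, and AT4G24350, of the phosphorylase superfamily. ST2A was at 7.19 to 9.48 CPM in scl28, 29.9 to 47.2 CPM in d14-7, 21.5 to 39.5 CPM in the ckx3 ckx5-labelled libraries and 29.6 to 44.1 CPM in WT. SP1L2 was at 1.1 to 2.77 CPM in scl28, 6.32 to 7.54 CPM in d14-7, 8.46 to 11.8 CPM in the ckx3 ckx5-labelled libraries and 6.24 to 11.2 CPM in WT. Neither gene overlapped between scl28 and any other genotype. AT1G15125 and AT4G24350 had log2 fold changes of -2.15 and -1.70 against WT (edgeR adjusted p = 0.000225 and 1.49e-05).

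**Figure D5:**
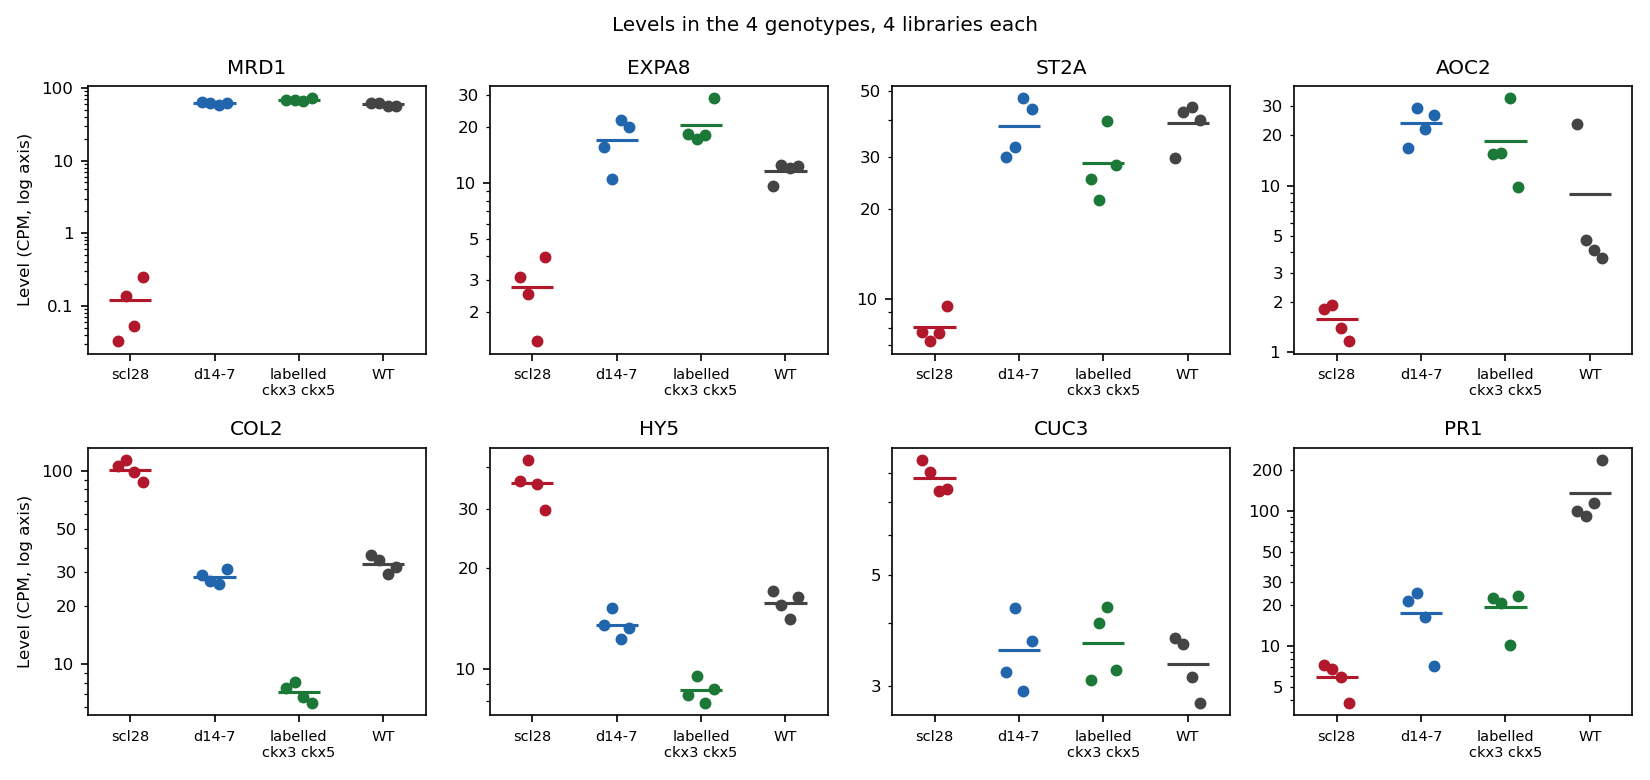
Level in CPM (log axes) of MRD1, EXPA8, ST2A, AOC2, COL2, HY5, CUC3 and PR1 in scl28, d14-7, the ckx3 ckx5-labelled libraries and WT. Each point is 1 library and the line is the mean of 4. The scl28 points lie below all others for MRD1, EXPA8, ST2A and AOC2 and above all others for COL2, HY5 and CUC3. For PR1 they lie below all WT points, at 3.8 to 7.24 CPM in scl28, and 1 d14-7 library, at 7.11 CPM, lies among them.

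Near SCL28 itself, 4 of 38 loci tested within 100 kb changed (10.5%), against 19.7% to 24% in bins farther away on chromosome 1. AT1G63055, an uncharacterized protein 20.5 kb away, was at 0.584, 0.482, 0.507 and 0.157 CPM in scl28 and at 1.79, 1.75, 1.8 and 1.98 CPM in WT (log2 fold change -2.07 ± 0.32, edgeR adjusted p = 0.000313). It also varied between the other genotypes, at 0.0 to 0.144 CPM in d14-7 and 2.71 to 4.02 CPM in the ckx3 ckx5-labelled libraries. The calls of the other 3 loci, AT1G63057 (-2.30), ACS10 (0.28) and RFC2 (0.38), were lost on leaving out single libraries (edgeR adjusted p up to 0.0866, 0.119 and 0.0982).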

How the data were processed

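Poly(A) RNA was measured in 16 libraries, 4 from each genotype. The authors deposited estimated counts per transcript model, all whole numbers as deposited and not rounded further, together with normalized signal values; 99.46% of the ratios of count to deposited normalized signal lay within 1% of their column median, and only the counts were used. Per the submitters' processing notes the build was TAIR10 and the notes name DESeq2; no source here names the aligner or counter. Counts of the 41671 models were added up to 33602 loci. Depth was 24334925 to 36735056 counts per library.

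The quasi-likelihood test of edgeR 4.0.16 in R 4.3.3 was fitted to all 16 libraries with 1 mean per genotype, TMM factors and the filterByExpr filter, and p-values were adjusted by Benjamini-Hochberg over 20947 loci. Alternatives used DESeq2 1.42.0, limma 3.58.1, other scalings and filters, transcript models, 2 groups only, a replicate block, a leaf score covariate and each library left out; the fit without WT replicates 3 and 4 was chosen after seeing the data. The code was tested on simulated data. Members and gene lists (36 lists, 600 members) were chosen with earlier results of these data known. Genes were named by rule: SCL28, list members, the 12 largest rises and 12 largest falls (mean of at least 5 CPM, no overlap), the 8 largest in each direction that stood apart, and called loci within 100 kb of SCL28. Libraries were separate pools of plants, so p-values rest on the spread between pools. That spread was estimated per locus over all 16 libraries, not over those of scl28 and WT alone. The same replicate numbers did not pair the samples. Gene positions and promoters come from RefSeq TAIR10.1.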

Additional observations from a re-analysis of the deposited data

Results flagged for a closer look

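Among 292 sets of 4 libraries examined for the named genes, 21 held a library far from the others by Dixon's test, in which the gap to the nearest library is divided by the range. Chance gives about 1 set in 20.

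AT5G40460 had 7.35 CPM in WT replicate 1 and 4.44 to 4.61 CPM in the other libraries of that genotype. CDKB1;1 had 42.8 CPM in scl28 replicate 2 and 31.1 to 33.0 CPM in the other libraries of that genotype. CYCD4;1 had 11.6 CPM in scl28 replicate 2 and 8.83 to 9.29 CPM in the other libraries of that genotype. BRC1 had 5.44 CPM in scl28 replicate 2 and 9.26 to 9.9 CPM in the other libraries of that genotype. IPT3 had 19.7 CPM in scl28 replicate 1 and 13.7 to 13.7 CPM in the other libraries of that genotype. IAA17 had 45.6 CPM in WT replicate 1 and 58.9 to 61.5 CPM in the other libraries of that genotype. CUC2 had 5.71 CPM in scl28 replicate 1 and 3.92 to 4.03 CPM in the other libraries of that genotype. PR1 had 239.0 CPM in WT replicate 4 and 90.8 to 114.0 CPM in the other libraries of that genotype. ALD1 had 0.162 CPM in scl28 replicate 1 and 0.0 to 0.0267 CPM in the other libraries of that genotype. AOC2 had 23.3 CPM in WT replicate 1 and 3.69 to 4.74 CPM in the other libraries of that genotype.

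LOX4 had 36.4 CPM in WT replicate 1 and 11.2 to 14.2 CPM in the other libraries of that genotype. MYC2 had 147.0 CPM in scl28 replicate 2 and 98.8 to 105 CPM in the other libraries of that genotype. LHY had 548.0 CPM in scl28 replicate 1 and 518.0 to 521.0 CPM in the other libraries of that genotype. PRR5 had 1.16 CPM in WT replicate 4 and 0.784 to 0.824 CPM in the other libraries of that genotype. TOC1 had 32.2 CPM in WT replicate 4 and 27.9 to 28.2 CPM in the other libraries of that genotype. CCL had 49.5 CPM in WT replicate 4 and 25.5 to 29.3 CPM in the other libraries of that genotype. LSU3 had 1.32 CPM in WT replicate 2 and 0.748 to 0.844 CPM in the other libraries of that genotype. AT3G16670 had 0.688 CPM in scl28 replicate 2 and 0.0942 to 0.16 CPM in the other libraries of that genotype. FAMT had 41.9 CPM in WT replicate 1 and 3.95 to 8.54 CPM in the other libraries of that genotype. BIP3 had 22.2 CPM in WT replicate 4 and 4.88 to 7.77 CPM in the other libraries of that genotype. Prx37 had 2.69 CPM in scl28 replicate 1 and 1.69 to 1.82 CPM in the other libraries of that genotype.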

How the results depend on the processing

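The count of loci that changed between scl28 and WT was 2171 with only these 2 groups in the fit (842 risen, 1329 fallen) and 7229 with the leaf score as a covariate (3816 risen, 3413 fallen), against 4155. Between scl28 and d14-7 it was 3924 with the leaf score, against 8899. Without 1 library each, the counts were 2890 to 5674 against WT, 7546 to 8462 against d14-7, 4131 to 4888 against the ckx3 ckx5-labelled libraries and 859 to 1228 for loci standing apart, and the log2 fold change of SCL28 was -1.37 to -1.10. Same-numbered samples had correlations of their deviations of 0.18, 0.058, 0.005 and 0.342, so the numbers do not pair the samples; with the replicate block 3889 loci changed. Of 94 values of these locus counts and the SCL28 level under alternatives, 91 kept their direction and side of the threshold or stayed within 1.5 times. Counts within the gene lists are not among the 94, and some were less steady. The count of G2/M rises stayed within 1.5 times in 9 of 19 alternatives, that of GRAS rises in 4 and that of leaf falls in 3. The counts of salicylic acid falls and clock rises did so in all 19. Of 134 named genes called besides SCL28, 99 kept their call in every alternative that tested them, and 0 reversed. Of these 99, 89 were tested in all 19 alternatives. In all, 17 of the 134 were not tested in at least 1 alternative, mostly the stricter filter. Some of the 134 were named for large changes or no overlap in these same libraries. The share that kept its call therefore does not describe all 4155 loci called. The cause of each shift was not tested. Harvest day cannot be told apart from genotype.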

Other observations

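Gene families were also counted from the product names in the annotation, a choice made after the values were seen. Of 108 intracellular immune receptors of the TIR-NBS and NBS-LRR kind, 44 fell and none rose (median log2 fold change -0.36; 24 to 58 fell over the 19 alternatives). Of 35 cysteine-rich receptor-like kinases 19 fell (median -0.98; 12 to 22), and of 47 receptor like proteins 27 fell (median -0.81; 14 to 30), with no rise in either family. Of 18 chitinases, which degrade fungal walls, 9 fell and none rose, and of 60 WRKY factors 22 fell and 6 rose.

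Of 42 histone genes 25 rose and none fell (median 0.42), but 3 to 33 rose over the alternatives, a spread like that of the G2/M genes. Of 48 pectin lyase-like genes, which act on the cell wall, 14 rose and 6 fell, and of 94 bHLH factors 19 rose and 8 fell. Of 76 peroxidases 2 rose and 22 fell, and of 161 cytochrome P450 genes 13 rose and 45 fell. Across all loci 9.3% rose and 10.5% fell.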
